A study of Rattus norvegicus with 12 samples.

Results

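Collagens, laminins and their companions build the extracellular matrix of a tissue. The genes described here are 54 of the 17407 gene entries measured in rat islets. They were chosen by symbol: 27 collagen chain genes (Col, a number, a, a number), 8 laminin chain genes (Lama, Lamb or Lamc and a number) and 19 of 20 listed genes for matrix glycoproteins, proteoglycans, matrix enzymes, their inhibitors and stromal cell markers. Nid1, the other listed symbol, and the chains Col4a2, Col6a1, Col6a3 and Lamb1 matched no entry and were not analysed here. In the pancreas, fibrillar collagens of types I, III and V are made mainly by stellate cells and fibroblasts and form the cables of the septa and of the islet capsule. Type IV collagen and laminins assemble into the basement membrane, and the blood vessels of the islet supply much of the basement membrane that beta cells rest on. Matrix metalloproteinases (MMPs) cut these proteins, and tissue inhibitors of metalloproteinases (TIMPs) hold the MMPs back.

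Islets came from 15-week-old Sprague Dawley rats, and RNA was sequenced in 12 libraries, 3 in each of 4 groups. The question set by the design is how gestational diabetes mellitus (GDM) of the dam and the diet of the offspring act on the islet. GDM was induced by feeding dams a high-fat and sucrose diet (HFS, 45% fat) for 6 weeks before mating and on through suckling, while lean dams ate a low-fat diet (LF, 10% fat), and pups ate one or the other diet for 12 weeks from weaning. The groups are GDM-HFS (GDM dam, HFS weaning diet), GDM-LF (GDM dam, LF weaning diet), Lean-HFS (lean dam, HFS weaning diet) and Lean-LF (lean dam, LF weaning diet). All dams and offspring were of the same strain, 6 dams were assigned to each diet, sires ate LF diet, and litters were cut to 8 pups. The pancreas was digested with collagenase and clean islets were hand-picked under a microscope. GDM of the dam and the HFS diet of the dam cannot be told apart in this design. The labels used here say nothing of sex or litter, and p-values measure only the spread between these samples.

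The libraries held 11469290 to 27492858 reads over genes. Reads of ribosomal RNA made up 1.84 to 39.0% of them, and the 54 matrix genes took 0.0866 to 0.468% of the rest. The ribosomal share was 1.84 to 8.55% in the GDM libraries and 24.7 to 39.0% in Lean-HFS. In Lean-LF it was 11.3, 30.4 and 1.84%. It was thus higher in all lean libraries but Lean-LF 3, and it cannot be fully told apart from the dam. Values below are read values scaled to library depth and then between libraries (scaled values). Of the 54 genes, 49 had a mean scaled value of at least 1 and were tested among 12339 genes. Beta cell markers, 7 genes with insulin among them, summed to scaled values of 1238730.0 to 2255350.0, the largest marker sum in every library. The letter K in the titles, of no stated meaning, marks GDM-HFS 3, GDM-LF 1 and GDM-LF 2, and the letter G all others, so the letter cannot be told apart from part of the GDM group. GDM-LF 1 stood apart in the matrix genes and GDM-LF 2 in the acinar markers, as described below, and results that rest on GDM-LF 1 are given with and without it. In RNA from whole islets, fewer cells of a type and less RNA per cell cannot be told apart.

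Promoter sequences were available for 38 of the 54 genes, and 6 of them are shown because the results below turn on these genes. Postn and Lum are among those highest in GDM-LF 1, Lama5, Lamc1 and Timp3 had low p-values between the weaning diets, and Timp1 was the most abundant matrix transcript. Each line holds the 250 bases before the RefSeq transcription start on build GRCr8, read 5′ to 3′ on the gene's strand. Capitals mark matches, on either strand, to the CCAAT box (CCAAT), the TATA box (TATAAA) or the GC box (GGGCGG), which are common binding motifs of general and widely expressed factors.
Postn, chr2:140677811-140678060, plus strand: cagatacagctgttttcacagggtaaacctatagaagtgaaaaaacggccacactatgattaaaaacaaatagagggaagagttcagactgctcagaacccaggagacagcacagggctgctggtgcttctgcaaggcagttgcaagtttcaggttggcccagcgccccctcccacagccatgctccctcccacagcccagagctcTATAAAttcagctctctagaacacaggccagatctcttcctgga
Lum, chr7:34245456-34245705, plus strand: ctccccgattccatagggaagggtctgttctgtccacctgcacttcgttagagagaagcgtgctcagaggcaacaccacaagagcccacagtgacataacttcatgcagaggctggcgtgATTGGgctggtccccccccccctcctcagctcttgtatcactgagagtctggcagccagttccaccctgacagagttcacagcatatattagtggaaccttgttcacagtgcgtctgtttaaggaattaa
Timp1, chrX:3771123-3771372, minus strand: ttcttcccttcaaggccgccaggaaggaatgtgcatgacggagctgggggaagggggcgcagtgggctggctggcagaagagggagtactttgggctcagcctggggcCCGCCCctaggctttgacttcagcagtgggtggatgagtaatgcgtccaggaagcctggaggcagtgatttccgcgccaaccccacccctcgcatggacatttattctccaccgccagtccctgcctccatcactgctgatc
Timp3, chr7:19459559-19459808, minus strand: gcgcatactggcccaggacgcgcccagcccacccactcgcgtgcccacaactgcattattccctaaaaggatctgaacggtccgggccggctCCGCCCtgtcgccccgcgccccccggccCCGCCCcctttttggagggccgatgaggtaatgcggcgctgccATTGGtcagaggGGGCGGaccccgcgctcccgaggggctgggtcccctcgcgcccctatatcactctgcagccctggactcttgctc
Lama5, chr3:187695975-187696224, minus strand: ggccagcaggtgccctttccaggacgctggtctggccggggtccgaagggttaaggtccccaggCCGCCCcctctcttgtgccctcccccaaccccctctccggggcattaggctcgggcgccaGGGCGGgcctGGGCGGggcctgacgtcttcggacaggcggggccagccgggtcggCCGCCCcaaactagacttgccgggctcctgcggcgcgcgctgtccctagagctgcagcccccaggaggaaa
Lamc1, chr13:68051987-68052236, minus strand: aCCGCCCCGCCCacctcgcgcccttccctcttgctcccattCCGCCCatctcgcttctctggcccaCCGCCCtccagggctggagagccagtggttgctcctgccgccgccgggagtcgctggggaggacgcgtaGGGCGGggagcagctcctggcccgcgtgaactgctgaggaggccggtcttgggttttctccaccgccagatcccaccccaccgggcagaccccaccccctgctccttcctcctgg

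Postn held a TATA box whose first base lies 44 bases before the start, and Lum a CCAAT box on the opposite strand 130 bases before it. Lama5 held 4 GC boxes and Lamc1 held 5, 2 of which overlap by 1 base. Timp1 held 1 GC box, while Timp3 held 3 GC boxes and 1 CCAAT box. The GC box was present in 19 of the 38 matrix promoters (50%) and in 30.5% of all 33469 promoters of this length. The CCAAT box was present in 28.9% of the matrix promoters and 34% of all promoters, and the TATA box in 13.2% of the matrix promoters and 12.9% of all promoters. A match is a stretch of letters and was not tested as a binding site.
The chain genes Col4a1 and Col4a2 of type IV collagen start head to head, and the 76 bases between their RefSeq starts hold 1 GC box, shown here because this stretch lies before both genes.
Col4a1 and Col4a2, chr16:84885521-84885596, plus strand: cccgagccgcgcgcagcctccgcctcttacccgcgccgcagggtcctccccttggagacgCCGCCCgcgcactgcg

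The matrix transcripts of the islets were led by an inhibitor of matrix breakdown. Timp1, which blocks most MMPs, averaged 2483 scaled reads per kb of transcript over the 12 libraries (range 1519 to 4409.6). Its lowest library was above the highest library of Thbs1, the next gene in the order. Thbs1, a secreted glycoprotein that restrains vessel growth, averaged 261 per kb (158 to 548), and Sparc, a collagen-binding glycoprotein, 189 per kb (77.5 to 599.7). Thbs1 was above Sparc in 8 of 12 libraries, and their ranges overlapped. Col3a1, the chain of type III collagen, averaged 138 per kb but with a median of 54.3, and GDM-LF 1 stood at 924. Col4a1, of the basement membrane, averaged 95.8 per kb (44.7 to 154) and was the higher of this pair in 8 of 12 libraries.

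Also among the 10 highest genes were Dcn, a small proteoglycan that binds collagen fibrils, Col27a1, a fibrillar collagen best known from cartilage, Fn1 (fibronectin) and Col18a1, the basement membrane collagen that carries endostatin. They averaged 84.1, 76.9, 64.5 and 58.3 scaled reads per kb in that order. The ranges of each gene in this set of 4 and the next overlapped over the libraries, so no order within it exceeds their spread. Over the 49 tested genes the mean level per kb had a median of 18.6, and Lama1, the laminin chain of embryonic basement membranes, was lowest at 0.155. The 5 genes not tested were Col2a1 and Col26a1, Col23a1, Col6a4 and the laminin chain Lamc3, with mean scaled values of 0.0996 to 0.509 and at most 9 reads in a library.

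**Figure D1:**
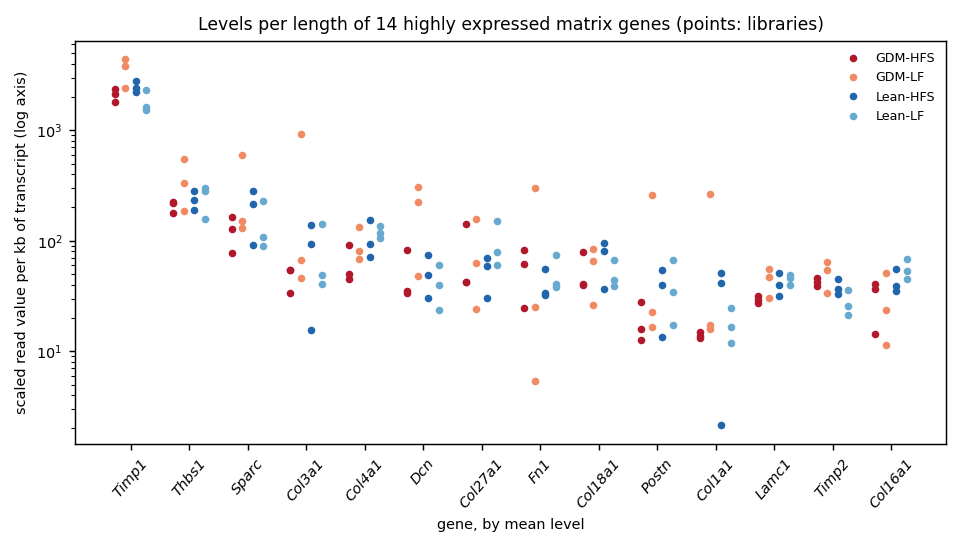
Levels of 14 highly expressed matrix genes, in scaled reads per kb of transcript on a log axis, with 1 point for each of the 12 libraries coloured by group. Timp1 lies above all other genes in every library, with a lowest library of 1519 per kb against 548 per kb in the highest library of Thbs1, and Col3a1, Fn1, Postn and Col1a1 each have 1 GDM-LF library far above the rest.

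The widest variation among the matrix genes lay inside the GDM-LF group. In GDM-LF 1, 7 of the 9 tested fibrillar collagens were at their highest. Col1a1, the main chain of type I collagen (chromosome 10, 82563434 to 82580364, build rn5), had scaled values of 86.5, 75.7 and 79.6 in GDM-HFS, 1519, 92.1 and 101 in GDM-LF, 294, 12.3 and 240.0 in Lean-HFS and 67.9, 94.8 and 143 in Lean-LF. GDM-LF 1 was at 5.18 times the next library, while the other 2 GDM-LF libraries lay within the range of the remaining groups. Lean-HFS 2 was the lowest by far.
Col3a1 had 258, 254 and 160.4 in GDM-HFS, 4358, 218 and 318 in GDM-LF, 659.6, 73.6 and 438 in Lean-HFS and 231, 192 and 668 in Lean-LF. Col1a2, the partner chain of Col1a1, had 51.0, 65.4 and 47.3 in GDM-HFS, 978, 68.2 and 63.2 in GDM-LF, 161, 11.5 and 124 in Lean-HFS and 48.5, 38.3 and 131 in Lean-LF. Both showed the same high library and the same low library as Col1a1. The minor fibrillar chains Col5a1 and Col5a2, which set fibril diameter, stood at 301 and 578 in GDM-LF 1, against 21.1 to 71.0 and 37.4 to 112 in the other 11 libraries.

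**Figure D2:**
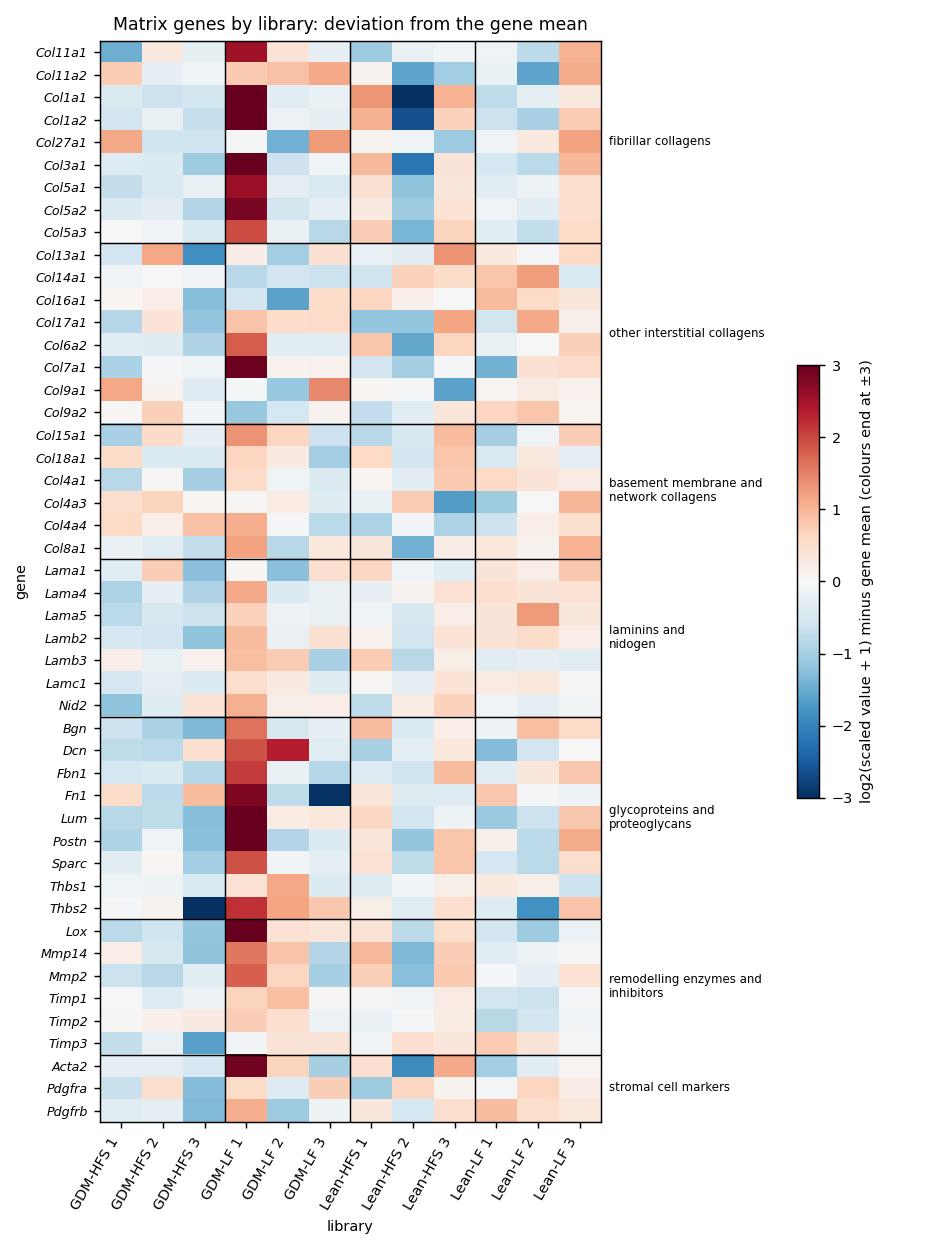
Deviation of each of 48 tested matrix genes (rows, grouped by role) from its mean over the 12 libraries (columns, grouped by dam and weaning diet), as log2(scaled value + 1) minus the gene mean, with colours ending at ±3. GDM-LF 1 is the highest library for 30 of the 49 genes tested (13.0% of all genes tested). GDM-HFS 3 is the lowest for 15 of the 49 (14.2% of all genes tested) and Lean-HFS 2 for 12 (6.67% of all genes tested).

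Glycoproteins and the crosslinking enzyme of the collagenous matrix were high in the same library. Postn (periostin), a protein of remodelling connective tissue, had 50.3, 87.5 and 39.8 in GDM-HFS, 821, 51.9 and 72.0 in GDM-LF, 124, 42.6 and 173 in Lean-HFS and 108, 54.4 and 211 in Lean-LF. Lum (lumican), a small proteoglycan that spaces collagen fibrils, had 9.88, 10.3 and 6.92 in GDM-HFS, 204, 21.6 and 23.0 in GDM-LF, 28.7, 11.9 and 16.4 in Lean-HFS and 7.99, 11.3 and 33.1 in Lean-LF. Lox (lysyl oxidase), the enzyme that crosslinks collagen, had 9.21, 10.5 and 6.92 in GDM-HFS, 184, 22.7 and 21.6 in GDM-LF, 22.4, 9.15 and 24.1 in Lean-HFS and 10.9, 7.39 and 14.6 in Lean-LF. In all 3 genes GDM-LF 1 was alone at the top, and for Lum and Lox the other GDM-LF libraries lay above all GDM-HFS libraries.
Fn1 had 514, 204 and 686 in GDM-HFS, 2477, 207 and 44.3 in GDM-LF, 456, 276 and 269.6 in Lean-HFS and 621, 337 and 317 in Lean-LF. It was highest in GDM-LF 1 and lowest in GDM-LF 3, so both ends of its range fell in 1 group. The smooth muscle actin gene Acta2, a marker of activated stellate cells and of vessel walls, stood at 69.6 in GDM-LF 1 and at 1.59 to 20.0 elsewhere. Mmp2 and Mmp14, an MMP and its membrane-bound activator, stood at 247 and 209, against 29.1 to 122 and 26.7 to 137 in the other libraries.

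**Figure D3:**
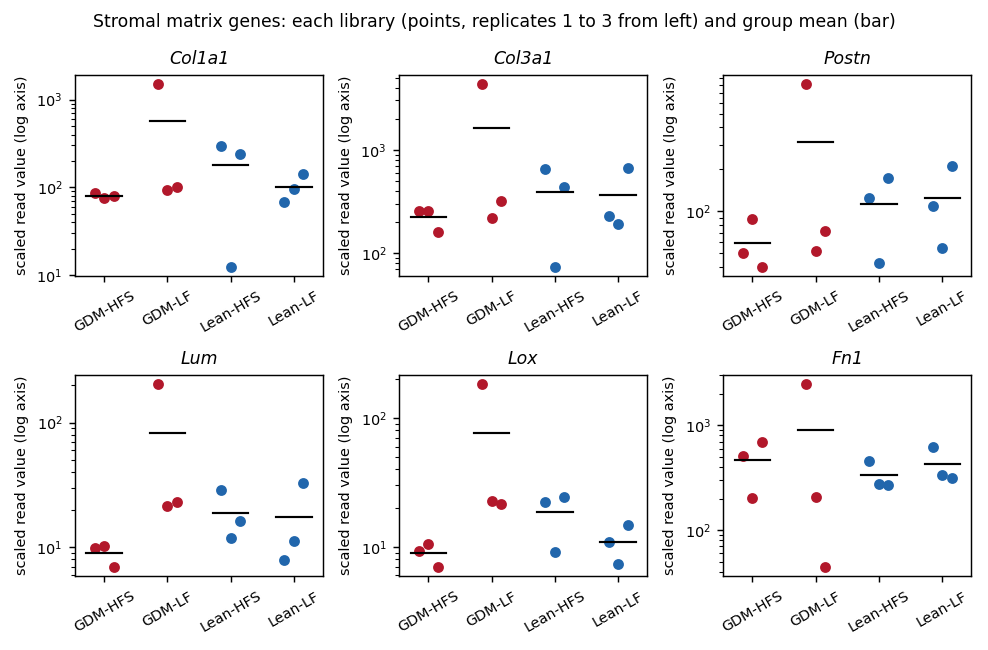
Scaled read values, on log axes, of Col1a1, Col3a1, Postn, Lum, Lox and Fn1 in each of the 12 libraries (points, replicates 1 to 3 from left to right) with the group mean (bar). GDM-LF 1 is the highest point in all 6 panels, at 1519 for Col1a1 and 4358 for Col3a1, and lifts the GDM-LF mean above the other 2 libraries of its group.

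Counted over the 49 tested genes, GDM-LF 1 was the highest library for 30 (61.2%), against 13.0% of all genes tested. It exceeded the highest of the other 11 libraries more than 2-fold for 18 genes and more than 3-fold for 12, namely Lox, Col3a1, Lum, Col1a2, Col7a1, Col1a1, Col5a2, Col5a1, Postn, Fn1, Acta2 and Col11a1. The shares of all genes past these 2 limits were not counted. GDM-LF 1 exceeded the median of the other 11 libraries more than 2-fold for 61.2% of the 49 genes, against 10.2% of all genes tested. By role, the ratio of GDM-LF 1 to the median of the other 11 libraries had a median of 9.26 over the 9 tested fibrillar collagens and 4.73 over the 9 glycoproteins and proteoglycans. It was 1.79 over the 8 laminins and nidogen and 2.08 over the 6 basement membrane and network collagens, against 1.01 over all genes tested. The 6 remodelling enzymes and inhibitors stood at 2.55 and the 3 stromal cell markers at 2.38. The 8 other interstitial collagens stood at 1.07, and 2 of them were highest in this library. Some matrix genes went the other way. GDM-LF 1 was the lowest library for Col9a2, a chain of cartilage type IX collagen, at 1.13 against 1.79 to 7.39, and for Col14a1, a fibril-associated collagen, at 46.3 against 53.3 to 202.

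Markers of other cells were set beside this library. The stellate and fibroblast markers outside the rule (6 genes, Tcf21 at 0 in 1 library) summed to 1589 in GDM-LF 1, against 348 to 983 in the other 11 libraries, most of it Vim (vimentin) at 1482, with Thy1 at 21.8 against 1.15 to 18.4. Vim and Thy1 were the 2 of these 6 genes that were highest in GDM-LF 1. Ngfr stood at 23.3 there and at up to 54.4 elsewhere, and Des, Gfap and Tcf21 were also highest in other libraries. The pericyte and smooth muscle markers (6 genes, Cnn1 at 0 in 6 libraries and Des shared with the list before) summed to 261 against 87.7 to 220.1. The duct markers (5 genes, with Spp1 at 1332) summed to 1663 against 131 to 1478. All 3 sums were highest in GDM-LF 1, as were 2 of the 6 pericyte and 3 of the 5 duct markers one by one, and the part of these cells in the result was not tested. The endothelial markers (10 genes) summed to 1163, inside the range of 503 to 1636, and the acinar markers (10 genes) to 37394, inside 22693 to 557191. The macrophage markers (8 genes) summed to 47.0, the second lowest sum, with Cd163 at 0. The Schwann cell markers (5 genes) summed to 45.2 against 17.7 to 33.2.

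Of 24 matched genes for collagen processing, 11 were highest in GDM-LF 1 and 13 in other libraries. This library was the highest for 13.0% of all genes tested. The sum of the 24 was 14426 in GDM-LF 1, the second lowest, against 13681 to 18483 elsewhere. Most of this sum is P4hb, at 7508 in GDM-LF 1 and 8558 to 12585 elsewhere, so it does not describe the other genes of the list. Plod2, which hydroxylates collagen lysines, stood at 559 in GDM-LF 1 and 38.6 to 124 elsewhere. Serpinh1, the collagen chaperone HSP47, stood at 933 against 98.3 to 545, and Fkbp10, a collagen prolyl isomerase, at 126 against 12.3 to 45.2. Ctgf, a matrix protein and a classical target of TGF-beta, stood at 901 against 22.4 to 496, and 9 of 18 genes of TGF-beta signalling and its targets were highest there. P4hb, a disulfide isomerase of all secretory cells and a subunit of the collagen prolyl hydroxylases, was lowest in GDM-LF 1 at 7508 against 8558 to 12585.

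GDM-LF 2, the library with the highest acinar sum (557191 scaled reads), was highest for 4 of the 49 matrix genes (8.16%), against 18.7% of all genes tested. Timp1 had 1715, 1326 and 1563 in GDM-HFS, 2765, 3228 and 1774 in GDM-LF, 1775, 1624 and 2047 in Lean-HFS and 1176, 1112 and 1705 in Lean-LF. Dcn had 55.9, 54.4 and 134 in GDM-HFS, 362, 493 and 76.6 in GDM-LF, 48.4, 78.4 and 119 in Lean-HFS and 38.1, 64.4 and 96.2 in Lean-LF. In both genes GDM-LF 2 and GDM-LF 1 were the highest libraries, and for Dcn they stood apart from the other 10. Thbs1 was also highest in GDM-LF 2, at 1605 against 464 to 973 in the others. With the mean level of the acinar markers as a covariate, the log2 difference between GDM-LF and Lean-LF was 0.80 for Timp1 and 1.42 for Dcn, against 0.94 and 1.94 without it.

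Col4a1, Lamc1 and Lama4 of the basement membrane spread less between libraries than the fibrillar collagens above. Col4a1 (chromosome 16, 82987857 to 83097435, build rn5) had scaled values of 329.5, 598 and 292 in GDM-HFS, 875, 532 and 443 in GDM-LF, 610.3, 463 and 1004 in Lean-HFS and 890.4, 768 and 698 in Lean-LF. Lamc1 had 206, 241 and 221 in GDM-HFS, 424, 356 and 229.6 in GDM-LF, 302, 242 and 392 in Lean-HFS and 347, 369.7 and 304 in Lean-LF. In both genes every GDM-HFS library lay below every Lean-LF library, with Col4a1 highest in Lean-HFS 3. GDM-HFS against Lean-LF is not one of the 7 contrasts, and the share of all genes apart in this pair was not counted. Lama4 had 69.4, 108 and 70.4 in GDM-HFS, 295, 99.1 and 114 in GDM-LF, 112, 142 and 179.9 in Lean-HFS and 188, 174 and 179.6 in Lean-LF, with GDM-LF 1 highest and the rest of the GDM libraries below the Lean-LF libraries. Nid2, which links laminin to type IV collagen, had 17.97, 32.7 and 56.5 in GDM-HFS, 89.9, 48.0 and 48.7 in GDM-LF, 24.6, 50.2 and 69.2 in Lean-HFS and 40.2, 35.2 and 39.9 in Lean-LF. The Lean-LF libraries of Nid2 were close together, the GDM-LF libraries lay above them, and both HFS groups spread across them.
Among the other chains and the stromal markers, Col6a2, a chain of the microfibrils around cells, had 83.8, 81.7 and 56.5 in GDM-HFS, 378, 82.8 and 84.5 in GDM-LF, 188, 35.8 and 167 in Lean-HFS and 90.0, 106 and 175 in Lean-LF, and GDM-LF 1 stood at 2.01 times the next library. Sparc had 257, 329.6 and 156 in GDM-HFS, 1209.6, 303 and 263 in GDM-LF, 434, 186 and 572 in Lean-HFS and 220.2, 183 and 459.6 in Lean-LF, also with GDM-LF 1 at the top. Pdgfrb had 78.4, 80.6 and 38.6 in GDM-HFS, 211, 45.5 and 88.9 in GDM-LF, 125, 67.7 and 141 in Lean-HFS and 188, 143 and 122 in Lean-LF, and the GDM-LF group alone spanned nearly its whole range. Pdgfra, a receptor that marks fibroblasts, had 31.7, 73.3 and 20.2 in GDM-HFS, 75.6, 39.0 and 85.9 in GDM-LF, 23.7, 79.2 and 55.1 in Lean-HFS and 50.1, 80.0 and 59.7 in Lean-LF. Pdgfra was not raised in GDM-LF 1 above the range of the other libraries, and its groups overlapped. Col27a1 varied in its own way, with 783, 235 and 235 in GDM-HFS, 344, 132 and 874 in GDM-LF, 383, 326 and 168 in Lean-HFS and 332, 435 and 832 in Lean-LF, high in GDM-HFS 1, GDM-LF 3 and Lean-LF 3.

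The chains of type I and of type V collagen kept narrower proportions than their levels. Type I collagen is built from the products of Col1a1 and Col1a2, and the ratio of Col1a1 to Col1a2 per kb ran from 0.817 to 1.89 over the 12 libraries, with a median of 1.203, while Col1a1 itself spanned scaled values of 12.3 to 1519. In GDM-LF 1 that ratio was 1.19. Col5a2 over Col5a1 ran from 0.912 to 1.77 per kb, and Col3a1 over Col1a1, chains of different collagens, from 2.24 to 7.31. Lamc1 over Lama4, chains found in vascular laminins, gave ratios of 1.14 to 2.84. Timp1 over Mmp2, an inhibitor over a protease, ran from 45.3 to 225 and was lowest in GDM-LF 1. These ratios are descriptions of the 12 libraries.

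The effect of maternal GDM was read as an average over both weaning diets, 6 GDM libraries against 6 lean libraries. By limma with Benjamini-Hochberg adjustment 0 of the 49 matrix genes passed an adjusted p of 0.05, while 11.6% of all genes tested passed. At an unadjusted p under 0.05 there were 9 matrix genes, 3 higher and 6 lower, against 30.9% of all genes. On recovered reads, edgeR and DESeq2 each called 1 matrix gene, Col14a1, beside 12.1% and 18.1% of all genes. No matrix gene had libraries of the 2 sides apart from each other (5.11% of all genes had). The median log2 difference was 0.10 over the matrix genes (27 higher and 22 lower) and 0.03 over all genes tested. Without GDM-LF 1 it was -0.24, with 16 higher and 33 lower. Within the libraries of the letter G, that is without the 3 of the letter K, it was -0.21, with 16 higher and 33 lower, and the letter K holds no lean library to compare.

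Col14a1 (chromosome 7, 95678302 to 95896126, build rn5) had the lowest p of the matrix genes. It stood at 46.3, 66.7 and 82.8 in the offspring of GDM dams (lowest, median and highest of 6) and 55.1, 129 and 202 in those of lean dams, and these ranges overlapped. Its log2 difference was -0.76 ± 0.28 (SE), with an adjusted p of 0.0849 by limma, 0.0392 by edgeR and 0.0114 by DESeq2. Col16a1, another fibril-associated collagen, had a log2 difference of -0.89 ± 0.33 (adjusted p = 0.0908), and with the length trend removed it was -0.72. Timp3, an inhibitor that stays bound to the matrix, stood at 18.5, 52.7 and 77.7 in the offspring of GDM dams (lowest, median and highest of 6) and 55.6, 75.8 and 99.8 in those of lean dams. Its log2 difference was -0.62 ± 0.23 (adjusted p = 0.0946). Timp2, which takes part in activating Mmp2, differed the other way, by 0.50 ± 0.19 (adjusted p = 0.0952), and Col4a1 by -0.58 ± 0.23 (adjusted p = 0.105). The ranges of these genes overlapped between the dams as well. Timp2 was highest in GDM-LF 1, GDM-LF 2 and GDM-HFS 3, all of the letter K, at 106, 89.5 and 76.1. Its highest value in a library of the letter G was 74.2, in Lean-HFS 3. Among libraries of the letter G, the largest log2 difference of the 6 remodelling enzymes and inhibitors, Timp2 included, was 0.20. GDM-LF 3 is all that remains of its group in that fit.

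By role, the 9 tested fibrillar collagens had a median log2 difference of 0.39 (8 higher and 1 lower) and the 8 laminins and nidogen one of -0.31 (3 higher and 5 lower). With the trend over transcript length removed, these medians were 0.54 (9 higher and 0 lower) and -0.12 (3 higher and 5 lower). The fibrillar value rests on GDM-LF 1: Col1a1 and Col3a1 had log2 differences of 0.52 and 0.39, which without that library were -0.14 and -0.29. Over the fibrillar collagens the median without it was -0.14. Without GDM-LF 1, 4 matrix genes passed, all lower in offspring of GDM dams, against 9.98% of all genes called. They were Lama4, a laminin chain of blood vessels (log2 difference -0.78 ± 0.16, adjusted p = 0.0232 by limma), Lama5, a laminin chain of mature vascular and epithelial basement membranes (-0.68 ± 0.20, 0.0470), Bgn (biglycan), a proteoglycan (-0.998 ± 0.27, 0.0388), and Pdgfrb, the receptor that marks pericytes (-0.98 ± 0.27, 0.0430). With all 12 libraries the same genes had log2 differences of -0.54, -0.54, -0.67 and -0.69, and none passed (adjusted p of 0.108 to 0.215). GDM-LF 1 was set aside because of its high matrix values. It was the highest library for Lama4, Bgn and Pdgfrb and the highest GDM library for Lama5. Leaving it out therefore lowers the GDM side of these genes, and the p-values without it are not an independent test. Leaving out GDM-LF 3 instead also gave 4 calls (Dcn, Timp1 and Timp2 higher, Col16a1 lower), against 17.5% of all genes called. Leaving out Lean-LF 3 gave 3 (Col11a2 and Timp2 higher, Col14a1 lower), against 20% of all genes.

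**Figure D4:**
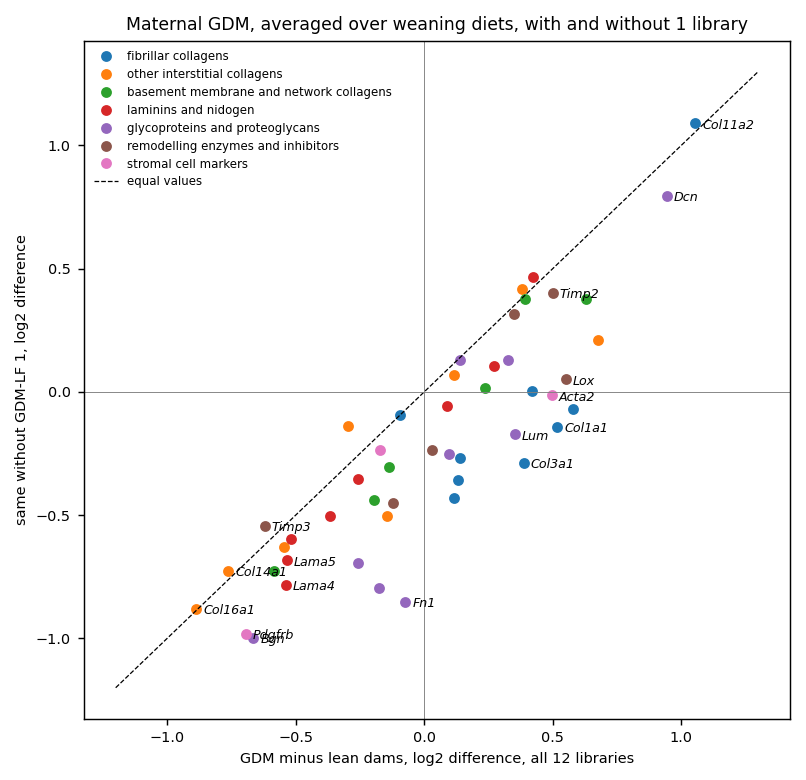
Log2 difference between offspring of GDM and lean dams, averaged over weaning diets, for the 49 tested matrix genes with all 12 libraries (horizontal axis) and without GDM-LF 1 (vertical axis), with points coloured by role and the dashed line marking equal values. Of the 49 points, most lie below the line, and the genes with a positive difference number 27 with all libraries and 16 without GDM-LF 1.

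Of 10 endothelial markers, 2 fell by limma in offspring of GDM dams (1 was called by edgeR and 3 by DESeq2), beside 11.6% of all genes. Kdr, the main receptor for vascular endothelial growth factor, fell by 0.87 on the log2 scale, and Eng (endoglin) fell by 0.75, while 8 did not pass. Tek, a receptor for angiopoietins, and Vwf, a clotting glycoprotein, had positive differences of 0.19 ± 0.30 and 0.03 ± 0.39. The sum of the 10 was 503 to 1163 in offspring of GDM dams and 734 to 1636 in those of lean dams, with no marker at 0 in any library. The stellate and fibroblast sum was 348 to 1589 in offspring of GDM dams and 349.9 to 817 in those of lean dams. Their part in the values of the laminin genes was not tested. Matrix genes have long transcripts (median 4965 bases, against 2118 over all genes tested), and across all genes the log2 difference was lower for longer ones (Spearman's rho of -0.40 over 12339 genes that are not independent of each other). With that trend removed the median over the matrix genes was 0.14, and 0 of 49 passed (3.69% of all genes).

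On the LF weaning diet, GDM-LF was set against Lean-LF. This comparison and the next share their libraries with the average above. Again 0 of 49 matrix genes passed by limma, against 1.58% of all genes. There were 10 at an unadjusted p under 0.05, 7 higher and 3 lower, against 26.6% of all genes, while edgeR called 0 (0% of all genes) and DESeq2 called 5, with Dcn, Timp1 and Timp2 among the higher ones and Col14a1 lower (13.7% of all genes). The 4 genes whose libraries did not overlap (25.3% of all genes) were Timp1, Lox and Nid2, higher in GDM-LF, and Col14a1, lower. Timp1 came nearest to the threshold: it averaged 2589 ± 742 in GDM-LF and 1331 ± 325 in Lean-LF (SD, n = 3 each), a log2 difference of 0.94 ± 0.24 (limma adjusted p = 0.0532), and 0.87 ± 0.27 without GDM-LF 1. That fit keeps GDM-LF 2, the highest library of Timp1 at 3228, while GDM-LF 3 stood at 1774 against 1112 to 1705 in Lean-LF. Dcn averaged 311 ± 213 in GDM-LF and 66.2 ± 29.1 in Lean-LF, with overlapping libraries and a log2 difference of 1.94 ± 0.60 (adjusted p = 0.0755). GDM-LF 3, the GDM-LF library of the letter G, stood at 76.6 for Dcn and 55.4 for Timp2. Both values lie inside the Lean-LF ranges of 38.1 to 96.2 and 34.9 to 59.8. Col14a1, at 46.3, 55.6 and 53.3 in GDM-LF against 151, 202 and 61.2 in Lean-LF, differed by -1.24 ± 0.39 (adjusted p = 0.0770). Timp2 differed by 0.84 ± 0.27 (adjusted p = 0.0782) and Lox by 1.99 ± 0.66 (adjusted p = 0.0868), and without GDM-LF 1 the difference of Lox was 0.996 ± 0.44. The median over the 49 genes was 0.44 (32 higher and 17 lower), against 0.05 over all genes, and -0.21 without GDM-LF 1 (21 higher and 28 lower). Leaving out GDM-LF 3 gave 6 calls (among them Dcn, Lox, Timp1 and Timp2 higher, Col16a1 lower), against 13.6% of all genes, and leaving out Lean-LF 3 gave 4 (Dcn, Timp1 and Timp2 higher, Col14a1 lower), against 14%. The median over the 49 genes was 0.82 (34 higher and 15 lower) without GDM-LF 3, 0.14 (29 higher and 20 lower) without Lean-LF 1 and 0.28 (34 higher and 15 lower) without Lean-LF 2.

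On the HFS weaning diet, GDM-HFS was set against Lean-HFS, a comparison that does not involve GDM-LF 1 other than in the estimate of spread. By limma 0 of 49 matrix genes passed, and 0.0081% of all genes did. There were 5 at an unadjusted p under 0.05, 1 higher and 4 lower (14.2% of all genes), and edgeR and DESeq2 called 0 (2.04% of all genes by DESeq2). Libraries did not overlap for 7 genes (24.8% of all genes), with Bgn, Lama4, Lama5, Lamc1, Lum and Timp3 lower in GDM-HFS and Col4a4 higher. Timp3 had 35.7, 50.1 and 18.5 in GDM-HFS and 55.6, 83.2 and 74.7 in Lean-HFS, a log2 difference of -1.10 ± 0.33 (limma adjusted p = 0.202). Bgn had 41.6, 33.1 and 24.8 in GDM-HFS against 123, 47.4 and 74.2 in Lean-HFS, a difference of -1.196 ± 0.50 (adjusted p = 0.297). Lama4 had 69.4, 108 and 70.4 in GDM-HFS and 112, 142 and 179.9 in Lean-HFS (-0.81 ± 0.34, adjusted p = 0.301), and Col4a1 differed by -0.76 ± 0.32 (adjusted p = 0.304) with overlapping libraries. Col4a4, a collagen chain of kidney basement membranes, rests on few reads (1 to 17 per library). The median over the 49 genes was -0.34 (10 higher and 39 lower), against -0.01 over all genes. It was -0.70 (9 higher and 40 lower) without Lean-HFS 2, -0.12 (19 higher and 30 lower) without Lean-HFS 3 and -0.21 (14 higher and 35 lower) without GDM-HFS 3. With the length trend removed it was -0.15 (15 higher and 34 lower), and 0 of 49 passed (0.0162% of all genes).

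The weaning diet was compared as an average over both kinds of dam, 6 HFS libraries against 6 LF libraries. Laminin chains of the vascular basement membrane were among the genes of lowest p, with lower values on HFS. By limma 0 of 49 matrix genes passed and 0% of all genes did, and edgeR and DESeq2 called 0 matrix genes (0.0162% of all genes by DESeq2). The 5 at an unadjusted p under 0.05 were Lama5, Lamb2, Lama4, Lamc1 and Timp3, all lower, against 4.95% of all genes. Lama5 stood at 56.6, 71.9 and 116 on HFS weaning (lowest, median and highest of 6) and 85.4, 129 and 245 on LF weaning, a log2 difference of -0.78 ± 0.21 (limma adjusted p = 0.883). Lamb2, the beta chain that pairs with Lama5 in mature basement membranes, stood at 8.65, 14.6 and 28.7 on HFS weaning (lowest, median and highest of 6) and 18.2, 29.1 and 42.2 on LF weaning (-0.77 ± 0.25, adjusted p = 0.883). Both ranges overlapped. Lama4 differed by -0.61 ± 0.24, Timp3 by -0.60 ± 0.23 and Lamc1, the gamma chain shared by most laminins, by -0.35 ± 0.16, each with an adjusted p of 0.883. Without GDM-LF 1 the difference of Lama4 was -0.37, and those of these 5 genes ran from -0.68 to -0.25.

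**Figure D5:**
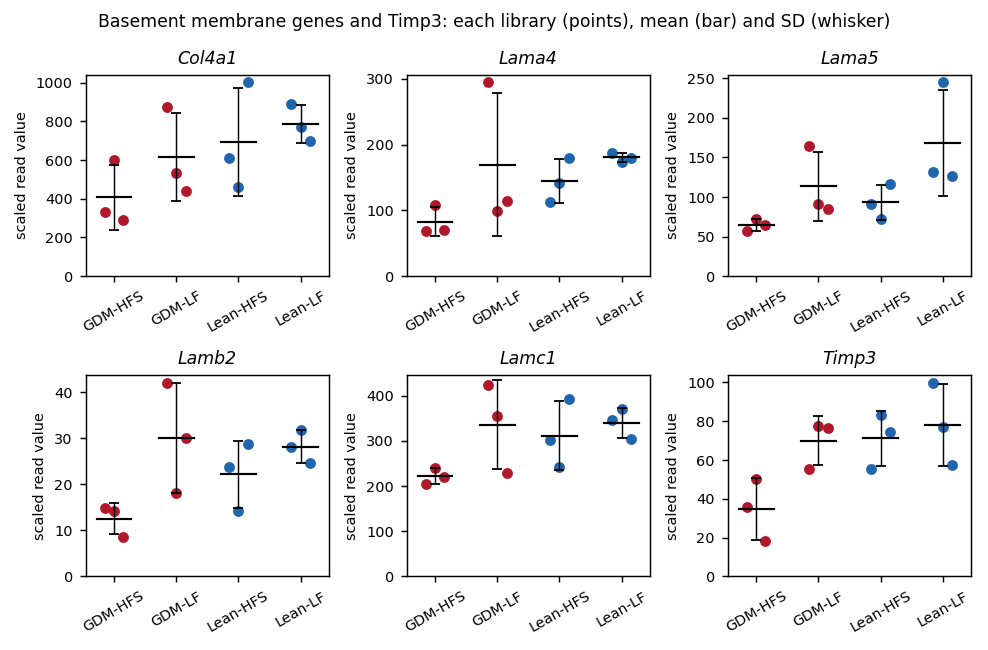
Scaled read values of Col4a1, Lama4, Lama5, Lamb2, Lamc1 and Timp3 in each library (points), with the group mean (bar) and SD (whisker, n = 3). The GDM-HFS mean is the lowest of the 4 in every panel, with libraries at 56.6, 71.8 and 64.0 for Lama5 against 132, 245 and 127 in Lean-LF, and GDM-LF 1 is the highest GDM library in all panels but Timp3.

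Most matrix genes had lower values on HFS: 6 higher and 43 lower, with a median log2 difference of -0.51 against -0.01 over all genes tested. Without GDM-LF 1 the median was -0.19 (10 higher and 39 lower), and with the length trend removed -0.41 (9 higher and 40 lower). By role, the median was -0.71 over the fibrillar collagens (0 higher and 9 lower), -0.69 over the glycoproteins and proteoglycans (1 higher and 8 lower) and -0.35 over the laminins and nidogen (1 higher and 7 lower). Without GDM-LF 1 these medians were -0.14 over the fibrillar collagens (1 higher and 8 lower), -0.33 over the glycoproteins and proteoglycans (2 higher and 7 lower) and -0.31 over the laminins and nidogen (1 higher and 7 lower). With the length trend removed and all libraries kept, they were -0.55, -0.67 and -0.20 in that order. Without the K libraries they were -0.16, -0.08 and -0.35. The basement membrane and network collagens and the remodelling enzymes and inhibitors had medians of -0.22 and -0.44 with all libraries. These were 0.24 and 0.14 without the K libraries. Over all 49 genes the median was -0.34 (8 higher and 41 lower) without Lean-HFS 2. The endothelial markers summed to 503 to 1636 on HFS and 794 to 1375 on LF, and the stellate and fibroblast markers to 348 to 817 on HFS and 375 to 1589 on LF. Their part in the medians was not tested.

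In offspring of lean dams, Lean-HFS was set against Lean-LF. By limma 0 of 49 passed (0% of all genes), edgeR and DESeq2 called 0, and 1 gene, Lama5, had an unadjusted p under 0.05 (2.18% of all genes). Lama5 had 91.4, 72.0 and 116 in Lean-HFS and 132, 245 and 127 in Lean-LF, a log2 difference of -0.80 ± 0.30 (adjusted p = 1.00). Lama5 and Col9a1 were lower with no overlap of libraries (7.63% of all genes). Timp1 differed by 0.47 ± 0.24, Timp2 by 0.48 ± 0.27, Col9a2 by -0.76 ± 0.46 and Col8a1, a collagen of vessel walls, by -0.78 ± 0.54, each with overlapping libraries. The median over the 49 genes was -0.15 (16 higher and 33 lower), against 0.00 over all genes. Its sign turned with 1 library left out: it was 0.11 (28 higher and 21 lower) without Lean-HFS 2 and 0.09 (26 higher and 23 lower) without Lean-LF 3, and it was -0.39 (9 higher and 40 lower) without Lean-HFS 3.

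In offspring of GDM dams, GDM-HFS was set against GDM-LF, the group that holds GDM-LF 1. By limma 0 of 49 passed (0% of all genes), and edgeR and DESeq2 called 0. At an unadjusted p under 0.05 there were 12, all lower on HFS, against 9.63% of all genes. Libraries did not overlap for 13 genes (14% of all genes), 12 of them lower and 1, Col14a1, higher. The lower ones were Lox, Lum, Thbs2, Timp1, Timp3, Bgn, Col1a1, Col7a1, Col11a2, Col17a1, Lama5 and Lamb2. Lox differed by -2.24 ± 0.66 on the log2 scale (limma adjusted p = 0.470) and by -1.24 ± 0.44 without GDM-LF 1. Lum differed by -2.28 ± 0.73 and by -1.23 ± 0.53 without that library. Lamb2 had 14.8, 14.2 and 8.65 in GDM-HFS and 42.2, 18.2 and 30.0 in GDM-LF (-1.16 ± 0.36, adjusted p = 0.474). Timp3 (-1.08 ± 0.33) and Timp1 (-0.72 ± 0.24) were -1.24 ± 0.37 and -0.65 ± 0.27 without GDM-LF 1, a fit that keeps GDM-LF 2, the highest library of Timp1. The median over the 49 genes was -0.86 (8 higher and 41 lower), against 0.00 over all genes, and -0.26 without GDM-LF 1 (12 higher and 37 lower). Among libraries of the letter G, where GDM-LF 3 is all that remains of its group, it was -0.16 (17 higher and 32 lower). Leaving out GDM-LF 3 gave 1 call, Dcn, lower on HFS, against 0.324% of all genes.

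Whether the effect of GDM differed between the weaning diets was tested as an interaction, the GDM difference on HFS minus that on LF. By limma 0 of 49 matrix genes passed (0% of all genes), and edgeR and DESeq2 called 0. At an unadjusted p under 0.05 there were 7, 6 negative and 1 positive, against 5.92% of all genes. Timp1, Lox, Thbs2 and Lum were among those of lowest p. For Timp1, the difference between dams was -0.24 on HFS and 0.94 on LF, an interaction of -1.19 ± 0.33 on the log2 scale (adjusted p = 0.784), and -1.12 ± 0.36 without GDM-LF 1. GDM-LF 2, the highest library of Timp1, stayed in that fit. For Lox the difference between dams was -0.89 on HFS and 1.99 on LF (-2.89 ± 0.94, and -1.89 ± 0.59 without GDM-LF 1). Thbs2, an inhibitor of vessel growth that binds matrix proteases, gave -3.04 ± 1.17 from at most 115 reads in a library, with GDM-HFS 3 at 0, and -2.64 ± 1.26 without GDM-LF 1. Lum gave -2.55 ± 1.03, and -1.51 ± 0.71 without GDM-LF 1. Over the 49 genes the median interaction was -0.68 (11 positive and 38 negative), against -0.01 over all genes. It was -0.17 without GDM-LF 1 (17 positive and 32 negative). Among libraries of the letter G it was 0.03 (25 positive and 24 negative), so the lean to negative values was absent there. GDM-LF 3 is all that remains of its group in that fit.

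Genes around the matrix were read from lists of related genes, again for GDM averaged over weaning diets. Of 23 tested genes for collagen processing, 1 rose, 0 fell and 22 did not pass. The gene that rose was Bmp1, the protease that trims procollagens, by 0.88 ± 0.24 on the log2 scale (limma adjusted p = 0.0338), and without GDM-LF 1 0 of the 23 passed. Of 21 matrix receptors, 0 rose, 2 fell and 19 did not pass. Dag1 (dystroglycan), a receptor for laminins, fell by 0.63 (adjusted p = 0.0204), with 548 to 672 in offspring of GDM dams and 661 to 1185 in those of lean dams. Sdc3, a membrane proteoglycan, fell by 0.52 (adjusted p = 0.0479). Itgb1, the beta chain of most matrix integrins, had a log2 difference of 0.05 ± 0.13 and did not pass. Of 18 genes of TGF-beta signalling and its targets, 0 passed by limma (4 at an unadjusted p under 0.05), 0 by edgeR and 1 by DESeq2. Ctgf had a log2 difference of 1.01 ± 0.66. These shares stand beside 11.6% of all genes passing in this comparison.

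Reads were counted over exons with both strands together, so reads from overlapping exons of different genes cannot be told apart. For 6 of the 54 genes the span from start to end overlaps another entry, and overlap of their exons was not examined. Timp1 lies inside the Syn1 gene on the opposite strand (mean scaled values of 1818 for Timp1 and 56.1 for Syn1). Timp3 lies inside Syn3 (63.5 and 2.01), and Lox, Timp2, Col7a1 and Col27a1 overlap entries with means under 1.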

How the data were processed

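Islet RNA of 12 libraries was analysed, 3 in each of 4 groups taken from the sample titles. The authors deposited 1 table of signal per gene: the submitters' processing notes name STAR 2.5.1b, HOMER 4.9 and DESeq2, and per the file headers HOMER counted reads over exons of rn5, both strands together, with 1 entry per gene. The headers name FPKM, but the values are not divided by length: in each library all values up to 1000 reads were whole multiples of 1 step (100% within 0.1 read), so whole reads were recovered. Size factors of 0.827 to 1.27 (median ratio over the 11337 genes above 0 everywhere) rescaled the libraries. Every gene whose scaled values averaged 1 or more entered limma 3.58.1 (R 4.3.3) on log2(scaled value + 1) with a mean-variance trend, 1 fit of 4 group means and 7 contrasts, with p-values adjusted over all 12339 genes by Benjamini-Hochberg. Fold changes are therefore on the log2(value + 1) scale, which understates those of low genes. edgeR 4.0.16 and DESeq2 1.42.0 were run on the recovered reads. The script was tested on simulated data. Other alternatives were the scaling, pseudocount, filter, trend, quality weights, covariates, length correction, replicate block and leaving out libraries. Levels per kb divide by the transcript length of the table. The matrix genes and gene lists were chosen with earlier results of these data known. Genes named are those passing in any contrast, the 5 of lowest p in each, the 10 of highest level per kb and a fixed set of main islet matrix genes. The other genes named, such as those in the counts of non-overlapping libraries, were chosen after their values were seen. Some genes that this rule names are not reported here. Promoters come from RefSeq (GRCr8).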

Additional observations from a re-analysis of the deposited data

How the results depend on the processing

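With all 12 libraries, 0 matrix genes passed in any of the 7 contrasts, and this count was also 0 under every alternative but the following. For GDM averaged over weaning diets edgeR gave 1, DESeq2 1 and library quality weights 2 (Col14a1 lower, Timp2 higher), and leaving out 1 library gave 0 to 4. For GDM on LF weaning, values without rescaling gave 1 (Col14a1), a minimum mean of 10 gave 1 (Timp1, with 42 matrix genes tested), DESeq2 5 and quality weights 6, and leaving out 1 library gave 0 to 6. For HFS in offspring of GDM dams leaving out 1 library gave 0 to 1. The causes were not tested. No paired design was found: samples sharing a replicate number correlated between -0.50 and 0.20 in their deviations (5 of 18 pairs over 0.1), and the replicate block gave 0 matrix genes in every contrast. With the ribosomal Rn45s level as a covariate the median over the matrix genes for GDM averaged was -0.37 (10 higher and 39 lower) and that for HFS in offspring of lean dams 0.29 (30 higher and 19 lower). Without rescaling, the median of all genes shifted to -0.14 for HFS averaged (matrix genes -0.66), -0.35 for HFS in offspring of lean dams, -0.17 and 0.20 for GDM on LF and HFS weaning, and 0.42 for the interaction (matrix genes -0.26). With 1 library left out, the median over the matrix genes for GDM averaged was also below 0 without Lean-HFS 2 (-0.13). It was near 0 without Lean-LF 2 (-0.004, 24 higher and 25 lower) and 0.30 without GDM-LF 3. Over all genes, the calls for GDM averaged numbered 1426 (756 higher and 670 lower), against 674 without rescaling (429 and 245), 671 with no trend, 2237 by DESeq2, 2568 with quality weights, 0 without the K libraries, 476 and 0 with acinar and Rn45s level as covariates, 455 once the length trend was removed (156 and 299), and 183 to 2471 with 1 library left out. For GDM on LF weaning they numbered 195 (105 higher and 90 lower), against 486 without rescaling (80 and 406), 362 at a minimum mean of 10, 1684 by DESeq2, 1768 with quality weights, 0 by edgeR, without a filter, with no trend, under the replicate block, without the K libraries, with the length trend removed and with either covariate, and 0 to 1726 with 1 library left out. For GDM on HFS weaning there was 1, against 252 by DESeq2, 57 with quality weights and 0 to 152 with 1 library left out. For HFS in offspring of GDM dams there were 0, against 33 by DESeq2 and 0 to 40 with 1 library left out. Groups of 3 libraries limit what can be called, and genes with few reads, such as Col4a4 and Thbs2, are the least precise.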
